A study of Drosophila melanogaster with 3 samples.

Results

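Binding of the tagged fly protein CG10274 was examined at 10 genes that build or specify muscle, out of 13968 protein-coding genes in the annotation. The 10 genes were taken as a named list, with no cut on binding values, but earlier results of these data were known by then. They were Msp300, sls, bt, Unc-89, Mhc, up, Tm1, Tm2, wupA and Mef2. Each gene was given a window made of its annotated body plus 2000 bp on either side of every annotated transcription start site (TSS). A gene was counted as holding a peak when the summit, the position a peak list gives as the highest point of the peak, fell in that window. All 10 genes were found in the annotation, Unc-89 under its newer symbol Obsc.

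The data come from chromatin immunoprecipitation followed by sequencing (ChIP-seq, which reads the DNA recovered with a protein) of CG10274, a zinc-finger protein. There was 1 group of 3 biological replicates, all from a transgenic Drosophila melanogaster line (named CG10274-GFP in the labels) that stably carries CG10274 with GFP at its C-terminal end, precipitated with an antibody to GFP. Each sample was whole embryos of pooled male and female sex, aged 0 to 24 h, so muscle was only part of the material and the cells a peak came from cannot be told apart. The labels name no second genotype, treatment or stage, and a control experiment listed in them was not analysed here, so no difference between conditions was tested.

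Striated muscle contracts as myosin thick filaments slide along actin thin filaments within repeated units called sarcomeres. Very large proteins hold these units together and tie nuclei in place, and tropomyosin and the troponins on the thin filament let calcium switch contraction on. In the fly embryo, Mef2 is the transcription factor that many muscle genes require for their expression during differentiation of the body wall, heart and gut muscles.

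The authors' list of peaks that passed a reproducibility filter over the replicates, called the combined list here, held 2988 peaks, and 9 of them had their summit in the window of a muscle gene. The DNA under 5 of these summits is shown because these are the sites at 3 structural genes, Msp300, sls and wupA, that passed the filter. Each line gives 151 bases of the dm6 reference, plus strand, with the summit in the middle, from chr2L:5108098-5108248, chr2L:5145636-5145786, chr2L:5196860-5197010, chr3L:2115783-2115933 and chrX:18118666-18118816 in the order of the lines. Capitals mark TAGGG or its reverse complement CCCTA, and in the sequence of Msp300 peak 1 the capitals run on over a match to the Mef2 site that overlaps CCCTA.
Msp300 peak 1: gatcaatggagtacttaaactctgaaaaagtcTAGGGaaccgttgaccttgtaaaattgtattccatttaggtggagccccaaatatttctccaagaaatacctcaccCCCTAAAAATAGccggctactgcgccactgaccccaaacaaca
Msp300 peak 2: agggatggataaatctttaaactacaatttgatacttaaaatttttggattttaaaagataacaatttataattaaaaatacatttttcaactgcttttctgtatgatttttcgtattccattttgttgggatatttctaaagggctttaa
Msp300 peak 3: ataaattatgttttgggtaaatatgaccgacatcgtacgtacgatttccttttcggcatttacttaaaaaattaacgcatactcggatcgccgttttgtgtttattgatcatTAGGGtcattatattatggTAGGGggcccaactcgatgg
sls peak 1: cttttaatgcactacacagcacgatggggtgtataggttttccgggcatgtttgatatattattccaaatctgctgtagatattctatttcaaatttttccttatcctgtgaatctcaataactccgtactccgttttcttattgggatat
wupA peak 1: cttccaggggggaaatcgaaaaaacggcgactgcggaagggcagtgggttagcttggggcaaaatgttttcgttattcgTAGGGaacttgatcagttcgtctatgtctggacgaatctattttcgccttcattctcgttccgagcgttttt

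Combined summits lay at 4 of the 10 muscle genes: 4 at Mef2, 3 at Msp300, 1 at sls and 1 at wupA. None lay at bt, Unc-89, Mhc, up, Tm1 or Tm2. Among all protein-coding genes, 19.5% had a combined summit in the window. The muscle genes are long, however, with a median window of 28380 bp against 4274 bp for all protein-coding genes, and long windows held combined summits more often. Of the 7 muscle genes with a window of at least 20 kb, 3 had a combined summit. Among all protein-coding genes with a window that long, 45.2% had one. Among the long genes, the share of muscle genes with a peak was therefore near that of all genes of like length. Of the 3 with a shorter window, 1 had a combined summit, beside 17.2%. That share is not of like length: these 3 windows were 7005 to 13355 bp long. Of the 12816 genes with windows under 20 kb, 8565 had windows under 5 kb.

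**Figure D1:**
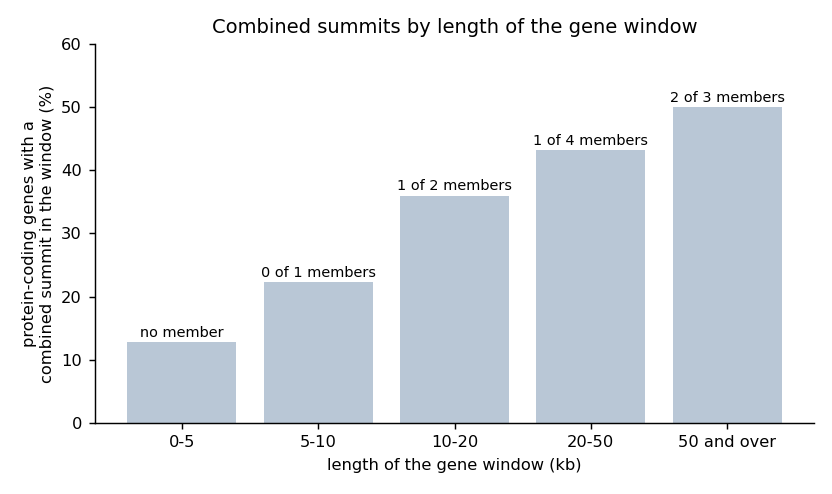
The bars give the share of all protein-coding genes with a combined summit in the window (y axis, percent), by length of the window (x axis, kb), and the text above each bar gives the muscle genes of that length with a combined summit. The share was 12.8% in windows under 5 kb and 171 of 342 genes in windows of 50 kb and over, and 7 of the 10 muscle genes fell in the 2 longest classes.

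The plot by window length shows how the share changed with length, and other ways in which long genes differ were not tested. The share of genes with a combined summit was 12.8% for windows under 5 kb, 22.3% for 5 to 10 kb, 36.0% for 10 to 20 kb, 43.2% for 20 to 50 kb and 171 of 342 genes for longer windows. Counted per length, the muscle windows held 0.227 combined summits per 10 kb, the windows of all protein-coding genes together held 0.265, and those of at least 20 kb held 0.197. The muscle windows thus lay between the long windows and all windows.

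Among the giant structural proteins, Msp300 carried the most combined summits. Msp300 (FBgn0261836, chromosome arm 2L, 5100877 to 5207002, plus strand) encodes a nesprin, a protein of the nuclear envelope that holds muscle nuclei in place. Its 3 combined summits, at 5108173, 5145711 and 5196935, were spread over the gene, 37538 and 51224 bp apart, and all 3 fell in introns. Peak 1 lay 339 bp upstream of an internal TSS, that of transcripts Msp300-RD and Msp300-RL, and peak 2 lay 675 bp upstream of another, that of Msp300-RF. Peak 3 was far from any TSS of the gene, 45186 bp downstream of the last, and the nearest annotated TSS was that of the small noncoding RNA sncRNA:128, 900 bp away.

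Peak strength was compared between replicates as a relative score, which is the authors' peak score in a replicate list divided by the median score, in the same replicate, of the 2292 combined peaks that every replicate lists, so that 1 is a typical combined peak. Msp300 peak 1 had relative scores of 1.84 in replicate 1, 2.17 in replicate 2 and 2.17 in replicate 3, with a mean of 2.06 ± 0.187 (SD, n = 3). Peak 2 had 1.90, 0.751 and 0.675, a mean of 1.11 ± 0.684 (SD, n = 3), which was 0.713 without replicate 1. Peak 3 had 1.18 in replicate 1 and 0.461 in replicate 3, and was not in the list of replicate 2. The 3 replicates thus lay close together at peak 1, whereas at peaks 2 and 3 replicate 1 was well above the others. By rank in the combined list, where 1 is the highest score, the peaks stood at 387, 844 and 1964.

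The gene sls (FBgn0086906, arm 3L, 2039681 to 2115611, minus strand) encodes the titin-like protein of the fly, which links thick filaments to the Z disc. It held 1 combined summit in a window of 77931 bp, at 2115858, which was 247 bp upstream of the only annotated TSS. Its relative scores were 1.45, 1.28 and 1.07, a mean of 1.27 ± 0.191 (SD, n = 3), and it ranked 859 in the combined list. All 3 replicates were slightly above a typical combined peak, and this was the muscle gene summit closest to a TSS of its own gene.

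The other giant genes had no combined summit. For bt (FBgn0005666, chromosome 4, 724400 to 776474, plus strand), which encodes the titin-like kinase projectin, the best summit in the pooled list, called by the authors on all replicates together, lay 1290 bp upstream of a TSS and ranked 19718. It was listed in replicates 1 and 3 with relative scores of 0.168 and 0.335 and was not listed in replicate 2. For Unc-89 (FBgn0053519, arm 2R, 23995543 to 24014254, minus strand), which encodes the M-line protein obscurin, the best pooled summit ranked 4550 and fell in a coding exon, 14672 bp downstream of a TSS. There the replicates differed: relative score 0.807 in replicate 3, 0.351 in replicate 2 and no entry in replicate 1. In replicate 3 alone this summit reached rank 1477, within the 2988 highest of that list.

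The thick filament was represented by Mhc (FBgn0264695, arm 2L, 16766566 to 16788766, plus strand), the only muscle myosin heavy chain gene of the fly. It had no combined summit and 1 pooled summit, which ranked 15249, lay in the 3′ untranslated part of the gene and scored 0.376 of the lowest combined peak. That summit was listed in replicates 2 and 3 with relative scores of 0.191 and 0.437. None of the 5 annotated TSSs of Mhc had a combined summit within 2000 bp.

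Of the thin filament genes, only wupA, which encodes troponin I, the subunit that blocks contraction at rest, had a combined summit. wupA (FBgn0283471, chromosome X, 18105568 to 18116922, minus strand) had it at 18118741, which was 1819 bp upstream of its outermost TSS and so within the window but outside the gene body. The relative scores were 2.76, 1.39 and 1.13, a mean of 1.76 ± 0.877 (SD, n = 3), and the peak ranked 427. Replicate 1 stood above the other 2 here as it did at Msp300 peak 2, although each replicate placed the peak above its typical combined peak.

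The other thin filament genes lay below the combined threshold by very different margins. Tm1 (FBgn0003721, arm 3R, 15278220 to 15308779, plus strand), a tropomyosin gene, just missed it: its best pooled summit ranked 3077, with a score 0.979 of the lowest combined peak. That summit lay in an intron 1472 bp downstream of a TSS and had relative scores of 0.574 and 0.506 in replicates 1 and 2, with no entry in replicate 3. Its neighbour Tm2 (FBgn0004117, arm 3R, 15310193 to 15315197, plus strand), the other tropomyosin gene, had its best pooled summit at rank 12026, with relative scores of 0.182, 0.407 and 0.361. For up (FBgn0004169, chromosome X, 13593474 to 13602578, minus strand), which encodes troponin T, the subunit that anchors troponin to tropomyosin, the best pooled summit ranked 16944, was listed in replicate 1 with a relative score of 0.182, and was not listed in replicates 2 and 3.

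**Figure D2:**
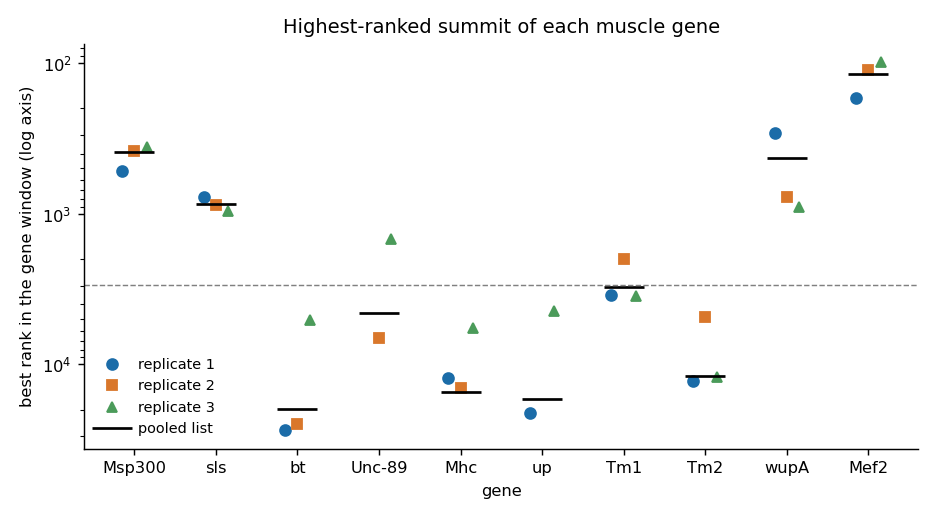
Best rank of any summit in each gene window (y axis, log axis, best at the top) in the list of each replicate (points) and in the pooled list (black bars), by gene (x axis), with the dashed line at rank 2988, the number of combined peaks. Mef2, Msp300, wupA and sls stand above the line in all 3 replicates, and bt, Mhc, up and Tm2 lie below it in every list that has them. The best ranks of Tm1 are near the line, but come from sites that differ between replicates.

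In the plot of best ranks, 4 genes were above rank 2988 in every replicate, and Tm1 and Unc-89 were above it in 1 replicate each. The best summit was picked in each replicate separately, so it need not be the same site in all 3. In replicates 1, 2 and 3, the best rank was 171, 111 and 99 at Mef2 and 522, 384 and 359 at Msp300. It was 293, 772 and 899 at wupA, and 769, 875 and 966 at sls. At Msp300 the best was peak 2 in replicate 1 and peak 1 in replicates 2 and 3. Tm1 was at 3461, 1991 and 3519, on either side of rank 2988, but not at 1 site. The Tm1 summit at 3461 in replicate 1 ranked 3335 in replicate 2 and was not listed in replicate 3. By the 2988 highest-scoring entries of each list, 4 of the 10 muscle genes had a summit in replicate 1, against 19.3% of all protein-coding genes. In replicate 2 it was 5 of 10, with Tm1 added, against 18.9%, and in replicate 3 it was 5 of 10, with Unc-89 added, against 16.8%. These shares of all genes are not matched for window length, and the muscle windows are longer.

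The strongest peak of the set lay at Mef2 (FBgn0011656, arm 2R, 9913496 to 9958858, minus strand), which holds 4 combined summits in a window of 47363 bp. Peak 1, at 9959939, ranked 119 of 2988 and was the only muscle gene peak among the first 300. Its relative scores were 4.32, 4.65 and 5.29, a mean of 4.75 ± 0.494 (SD, n = 3). This summit is shared with a neighbour: it lay 1081 bp upstream of the outermost Mef2 TSS but 139 bp upstream of the TSS of Pal1, a gene for an enzyme of peptide amidation, and it was also in the window of Pdrg1. Which of these genes the site serves cannot be read from the lists.

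The other 3 Mef2 summits were inside the gene. Peak 2, at 9942980, fell in a 5′ untranslated exon 1784 bp downstream of the TSS of Mef2-RG, with relative scores of 0.879, 1.31 and 1.05, a mean of 1.08 ± 0.217 (SD, n = 3). Peaks 3 and 4 were intronic and 530 bp apart, 4400 and 4930 bp upstream of the same TSS. Peak 3 had relative scores of 0.934, 0.519 and 0.949, a mean of 0.801 ± 0.244 (SD, n = 3). Peak 4 had 0.434, 0.481 and 0.607, a mean of 0.507 ± 0.0895 (SD, n = 3), below a typical combined peak in each replicate.

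**Figure D3:**
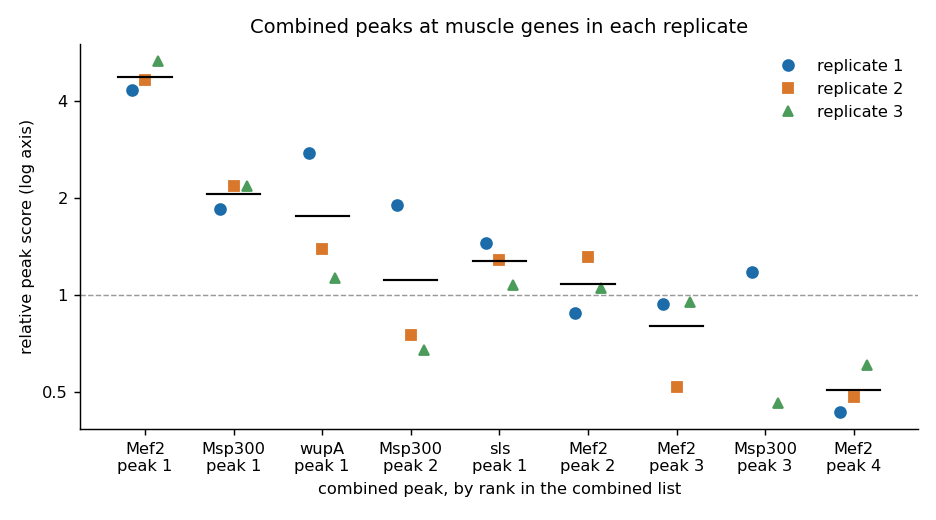
Relative score (y axis, log axis) of the 9 combined peaks at muscle genes (x axis, by rank in the combined list) in each replicate, with the mean as a black bar where all 3 lists have the peak and the dashed line at 1, a typical combined peak. Mef2 peak 1, between 4.32 and 5.29, is clear of all others, and the remaining peaks overlap their neighbours.

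Ordered by mean relative score, the plot of relative scores separates only Mef2 peak 1 from its neighbour: its lowest replicate was 4.32 and the highest of Msp300 peak 1 was 2.17. Every other pair of neighbours in the order, from Msp300 peak 1 through wupA peak 1, sls peak 1, Msp300 peak 2 and Mef2 peaks 2 and 3 to Mef2 peak 4, overlapped over the replicates. The authors' scores in the combined list ran from 141.4 to 1141 with a median of 306.4 for the 9 muscle gene peaks, and from 128.2 to 22890 with a median of 210.6 over all 2988 peaks. Of the 9 muscle gene peaks, 7 were above that overall median.

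Support from the replicates was as follows. Of the 9 peaks, 6 overlapped an entry among the 2988 highest of every replicate, beside 50.3% of all combined peaks, and 8 overlapped an entry of any rank in every replicate, beside 76.7%. The 3 with less support among the highest entries were Msp300 peak 3 and Mef2 peak 4, each found in 1 replicate, and Mef2 peak 3, found in 2 replicates.

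**Figure D4:**
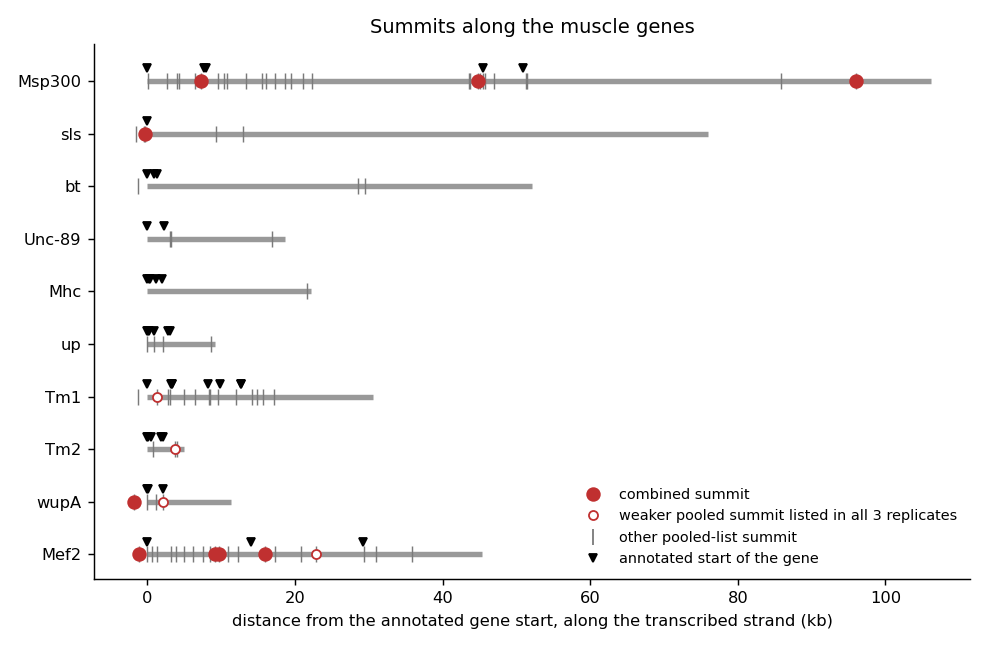
Map of each muscle gene (grey line, x axis in kb from the annotated start along the transcribed strand) with its TSSs (black triangles), combined summits (filled circles), weaker pooled summits listed in all 3 replicates (open circles) and other pooled summits (ticks). Of the 4 combined summits of Mef2, 1 lies upstream of the gene and 3 in its part nearest the start, the 3 of Msp300 are spread along the gene, and those of sls and wupA lie upstream.

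By position, shown in the map of the genes, most of the 9 peaks lay more than 500 bp from any TSS, as did most of all combined peaks. A combined summit lay within 500 bp of a TSS of the gene itself at 2 of the 10 genes, Msp300 and sls, beside 11.1% of all protein-coding genes. Of the 41 annotated TSSs of the 10 genes, 2 had a combined summit within that distance, beside 10.2% of the TSSs of all protein-coding genes. Counting TSSs of any gene, which adds Mef2 peak 1 near Pal1, 3 of the 9 muscle gene summits (33.3%) were within 500 bp of a TSS, beside 47.3% of all combined summits.

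Below the combined threshold, pooled summits that every replicate lists were found at 4 of the 10 genes, beside 12.1% of all protein-coding genes, with 1 summit each at Mef2, Tm1, Tm2 and wupA. The Mef2 summit ranked 3133 in the pooled list and had relative scores of 0.606, 0.485 and 0.365, a mean of 0.485 ± 0.121 (SD, n = 3). The Tm1 summit, in an intron 1329 bp downstream of a TSS, ranked 4451 and had 0.391, 0.344 and 0.518, a mean of 0.418 ± 0.0899 (SD, n = 3). The Tm2 and wupA summits were weaker, with means of 0.317 ± 0.119 and 0.296 ± 0.0506 (SD, n = 3 each). These 4 summits amount to 0.101 per 10 kb of muscle windows, beside 0.251 per 10 kb of the windows of all protein-coding genes and 0.263 per 10 kb of those of at least 20 kb.

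The replicate and pooled lists hold background as well as peaks, per the authors' descriptions, and their low ranks were not taken for binding. All 10 genes had a pooled summit, beside 69.0% of all protein-coding genes. An entry of any rank lay at 9 of 10 in replicate 1 (all but Unc-89), beside 65.2%, at 9 of 10 in replicate 2 (all but up), beside 71.4%, and at 10 of 10 in replicate 3, beside 55.5%. Here too the shares of all genes are not matched for the longer muscle windows.

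**Figure D5:**
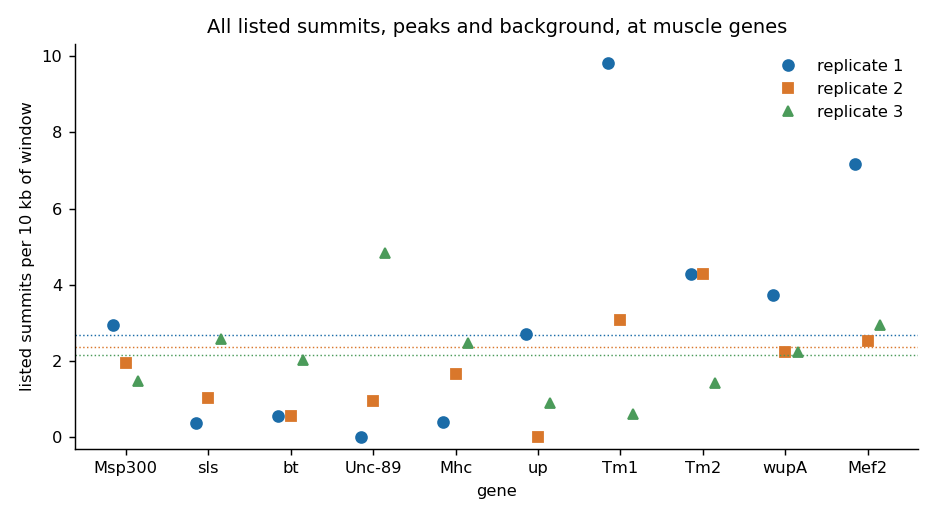
Entries of any rank per 10 kb of window (y axis) in the list of each replicate (points) by muscle gene (x axis), with dotted lines at the value over the windows of all protein-coding genes in the same replicate colours. Replicate 1 is far above its line at Tm1 and Mef2, and replicate 3 is above the other 2 at sls, bt, Unc-89 and Mhc.

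How these entries were spread over the genes differed between replicates, as the plot of entries per 10 kb shows. At Tm1 there were 9.83, 3.07 and 0.614 entries per 10 kb in replicates 1, 2 and 3, and at Mef2 7.18, 2.53 and 2.96, beside 2.68, 2.37 and 2.16 over the windows of all protein-coding genes. At sls the order was the other way, with 0.385, 1.03 and 2.57 entries per 10 kb, and likewise at Unc-89 with 0, 0.966 and 4.83. Msp300 differed from the other giant genes, with 2.96, 1.94 and 1.48 entries per 10 kb, highest in replicate 1. Replicate 1 was thus dense at Tm1 and Mef2 and sparse at sls, bt, Unc-89 and Mhc, where replicate 3 was the densest.

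The entries also differed in where in the gene they fell. Of the entries in muscle windows in replicate 3, 45 of 84 (53.6%) had their summit in a coding exon. It was 23 of 66 (34.8%) in replicate 2 and 9 of 116 (7.76%) in replicate 1. Over all entries of replicates 3, 2 and 1, inside gene windows or not, it was 15.2%, 17.2% and 12.5%. At sls, 15 of 20 entries were in coding exons in replicate 3, 5 of 8 in replicate 2 and 0 of 3 in replicate 1. At Unc-89 it was 8 of 10 in replicate 3 and 1 of 2 in replicate 2. Coding exons made up 46.1% of the muscle windows, and 22.7% of the windows of all protein-coding genes, with 71.2% at sls and 65.9% at Unc-89. None of the 9 combined summits at muscle genes was in a coding exon, beside 1.17% of all combined summits, and of the coding-exon entries at muscle genes only 2, at sls and Unc-89 in replicate 3, were among the 2988 highest of their list. What sets the replicates apart there was not tested.

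Sequence within 50 bp of the 9 muscle gene summits was searched on both strands for 12 motifs written down from general knowledge of fly regulatory DNA. The E-box CANNTG, a site for basic helix-loop-helix factors, was at 3 summits (Msp300 peak 2, Mef2 peaks 2 and 3), beside 37.7% of all combined summits and 41.7% of flanks 500 bp away. The TATA box TATAAA was at 2 (Msp300 peak 2, Mef2 peak 4), beside 19.9% and 11.1%. The Mef2 site was at 1, Msp300 peak 1, with its centre 40 bp from the summit, beside 0.469% of all combined summits and 0.418% of flanks. Of the other motifs none was matched, and each is given with its share of all combined summits. They were GAGAG for the GAGA factor (9.64%), TATCGATA for DREF (1.24%) and GGTCACAC for M1BP (0.636%). The rest were CGATA for BEAF-32 (13.3%), CAGGTA for Zelda (2.61%) and TGANTCA for AP-1 (2.68%). The E-box form CACGTG (1.07%) was not matched either, nor was the form CAGCTG (3.68%) or the form CATATG (4.05%). Shares this small leave few or no matches among 9 summits.

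Motifs found from the combined peaks themselves were also looked up. The 8-mer ATTTAAAA, whose share at summits outside muscle windows exceeded that in flanks by most, was at 0 of the 9, beside 5.05% of all combined summits and 1.99% of flanks. The 7-mer ACCCTAC, with the highest ratio of those shares and chosen after the data were seen, was at 0, beside 2.81% and 0.301%. Its core CCCTA, also chosen then and contained in it, was at 3 of the 9, namely Msp300 peaks 1 and 3 and wupA peak 1, beside 11.9% and 5.89%. The capitals in the sequences above show these matches: the wupA match was centred 6 bp from the summit, those of Msp300 peak 1 lay 41 bp on one side and 35 bp on the other, and the nearer one of Msp300 peak 3 was 39 bp away. The summits held between 42.6% and 81.2% A or T in 101 bases, with a median of 63.4%, and the median of all combined summits was 65.3%.

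Other genes of muscle were taken from 5 lists of 79 genes in all, which do not hold the 10 genes above. These lists, too, were chosen with earlier results of these data known. A combined summit was in the window of 31 of the 79 (39.2%), beside the 19.5% of all protein-coding genes. By window length it was 19 of 28 genes with at least 20 kb, beside 45.2%, and 12 of 51 shorter ones, beside 17.2%. The 17.2% again covers all windows under 20 kb and is not matched for length within them. The lists were Z disc and attachment with 9 of 18 genes, myoblast fusion with 7 of 11, mesoderm and muscle regulators with 9 of 29, thin and thick filament with 4 of 16, and calcium handling with 2 of 5.

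The highest peak among these genes was at org-1, a T-box transcription factor of muscle founder cells, 216 bp upstream of its TSS, with relative scores of 15.1, 12.4 and 13.9, a mean of 13.8 ± 1.36 (SD, n = 3). The other regulators named were hth, a homeobox gene, at 2.06 ± 0.506, and bin, a forkhead gene of gut muscle, at 1.71 ± 0.369 (SD, n = 3 each). The hth summit lay 96234 bp from the nearest TSS of hth, in a window of 134008 bp. The nearest TSS of any gene there was that of mir-4944, 4909 bp away. Of the filament genes, tmod, which caps thin filaments, had 1.77 ± 0.469 and TpnC47D, a troponin C, 0.633 ± 0.0761 (SD, n = 3 each). The summit at the troponin C gene TpnC73F was listed in 2 replicates at 0.909 and 0.433. It lay 1780 bp from a TSS of TpnC73F and 1572 bp from that of rogdi, the nearest. The org-1 peak was above Mef2 peak 1 in every replicate.

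At the Z disc and attachment genes, by, which encodes tensin, had 3.28 ± 0.25, Pax, which encodes paxillin, 2.22 ± 0.22, and cher, which encodes filamin, 1.46 ± 0.473 (SD, n = 3 each). For fusion, Vrp1, an actin regulator, had 2.96 ± 1.28, kirre, an adhesion protein of founder cells, 1.35 ± 0.232, and siz, an exchange factor for small GTPases, 0.766 ± 0.295 (SD, n = 3 each). The window of kirre is 396149 bp long and held 10 combined summits. The kirre summit scored here lay 45974 bp from the nearest TSS of kirre and 2543 bp from that of CG32795. Of the calcium handling genes, jp, which encodes junctophilin, had 3.73 ± 0.666 (SD, n = 3), and SERCA, the calcium pump, was listed in replicates 1 and 2 at 0.673 and 1.07. The peaks at by, jp and Pax lay 263, 764 and 224 bp upstream of a TSS of the gene.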

How the data were processed

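Peak lists of 3 ChIP-seq replicates were used as the authors deposited them: 1 narrowPeak list per replicate with 30000 entries, 1 list called on pooled replicates and 1 combined list of 2988 peaks that passed the reproducibility filter IDR, per the descriptions deposited beside them. The authors' peak score (column 7) has no fixed range and is not scaled between lists. The −log10 q-value (column 9), as deposited by the authors, has a ceiling shared by 2266 combined peaks, so ranks follow the score. The combined peaks were exactly the 2988 highest of the pooled list. The aligner and peak caller, with their settings, are not given in the sources used. Lists for dm3 were not used. Read counts are not part of the lists. The depth of each sample is therefore unknown, and the SD over replicates covers the spread between these samples.

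Coordinates are dm6, 1-based. Gene models are Ensembl BDGP6 version 6.54, release 115, without transposable elements, and sequence is the RefSeq release 6 genome. The last combined peak on arm 3R ends at 31977892, within the arm of 32079331 bp. Analysis used Python 3.11.15, numpy 2.4.6, pandas 2.3.3 and matplotlib 3.10.9, and the scripts were tested on simulated data. Replicate entries were matched to a peak by an overlap of at least 1 bp, taking the highest score. Scores were divided by the replicate medians of 112.5, 74.88 and 56.25. Sonicated fragments of 200 to 800 bp, per the labels, limit the resolution of summits. The descriptions beside the lists name an additional input for the replicate and pooled lists, which may be a control, so whether the score is already relative to one is not known. With 1 group, and the control experiment not analysed here, no test was made and values are descriptions. Named are the 10 genes with every combined summit, or else their best pooled summit, and up to 3 genes of each other list with the highest-scoring combined summit. Symbols matched for 9 of the 10 genes and 1 matched by its other symbol. The genes and lists were chosen with earlier results of these data known. Alternatives changed the window, the overlap, the promoter distance, the scaling, the peaks used and the replicates.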

Additional observations from a re-analysis of the deposited data

How the results depend on the processing

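The count of 4 muscle genes with a combined summit changed only with the gene body alone, and other counts changed more often. The 9 summits became 6 within 2000 bp of a TSS only or with the gene body alone, and 7 with the 1494 highest combined peaks. For counts of combined summits, leaving out a replicate also required support from the highest entries of both others. The count of 9 has no such rule, and 6 of the 9 had support in all 3 replicates. Under the rule the summits were 6 without replicate 1 or 3 and 7 without replicate 2, so these counts do not show what removing a replicate alone would do. The 0.227 summits per 10 kb became 0.152 without replicate 1 or 3, under the same support rule. The rates over all windows and long windows were not counted under that rule, so 0.152 cannot be set beside them. Support in every replicate, at 6 peaks, became 4 with a reciprocal overlap of 50% and 8 with the 10000 highest entries. With the gene body alone as the window, 2 of the 10 muscle genes had a combined summit in place of 4, since the sls and wupA summits lie upstream. With 250 bp in place of 500 bp as the promoter distance, 1 gene had a promoter summit in place of 2. With the stronger part of the combined list (1494 peaks), 16 of the 79 other muscle genes had a combined summit in place of 31. Leaving out each replicate in turn, with support from the highest entries of both others required, gave 19 to 24 of those genes, lowest without replicate 2. The weaker pooled summits at the 10 genes, 4 when listed in all 3 replicates, were 9 to 16 when 1 replicate was left out, 9 without replicate 1, 9 without replicate 2 and 16 without replicate 3. Fewer lists to satisfy makes that count larger by construction. The 13 changes of scaling or overlap that gave a mean relative score moved none of them by more than 1 SD. With a reciprocal overlap of 50%, no mean was available for sls peak 1 and Mef2 peaks 2 and 4. Msp300 peak 3, not listed in replicate 2, had no mean to compare. Without replicate 1, Msp300 peak 2 had a mean of 0.713 in place of 1.11, below a typical combined peak. Of the 15 motif counts, 12 were unchanged within 100 bp of the summit, and 3 became 1 in place of 0. With summits counted only where the nearest TSS belongs to the gene, an alternative chosen after seeing the data, 7 of the 9 summits and all 4 genes remained. No paired analysis was possible because there is 1 group. Depth is unknown, so a gene with no combined summit may still be bound below what these lists resolve.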

Other observations

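The entries of replicate 1 at Tm1 were many and lay close together: 32 summits in 23 separate regions that covered 39.7% of the window, against 11.0% in replicate 2 and 2.40% in replicate 3. None of those 32 was among the 2988 highest of replicate 1. At Mef2 the entries of replicate 1 covered 28.5% of the window, against 9.74% and 10.7% in replicates 2 and 3. At Unc-89 the order was the other way, with no entry in replicate 1, 3.86% covered in replicate 2 and 17.3% in replicate 3. The cause of these differences was not tested.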
